A study of Mus musculus with 48 samples.

Results

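The annexins and their S100 partners are described here by 10 mouse genes, the annexins Anxa1, Anxa2, Anxa3, Anxa4, Anxa5, Anxa6 and Anxa9 and the S100 genes S100a10, S100a11 and S100a6, out of 49671 genes in the count table (21943 were detected in 1 cell or more). The genes were chosen by name for what an earlier look at the same cells had shown, namely which of them are switched on in few cells and which are broad, so their levels are given as a description and carry no test. Annexins are intracellular proteins that bind acidic phospholipids of membranes when calcium rises, and they organise membrane domains, vesicle traffic and the sealing of torn plasma membrane. S100 proteins are small EF-hand calcium sensors that dimerise, and several of them grip the N-terminal tail of an annexin; the best known complex joins a dimer of S100A10 to a pair of Anxa2 chains at the plasma membrane.

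The data were 48 single cells, 1 Smart-seq2 library each, from inner cell masses (ICMs) of untreated E3.75 blastocysts. Smart-seq2 copies whole polyadenylated transcripts and has no molecular identifiers. The embryos came from natural matings between mice carrying PDGFRa::H2B-GFP/+, a reporter placed in the Pdgfra locus, and F1 hybrids (C57BL/6JxCBA/J), and the outer trophectoderm was removed by immunosurgery. By the study's methods the cells came from 3 embryos that carried the reporter themselves, so all cells have a knock-in allele at Pdgfra although the titles call them WT, and that were picked for a mixed pattern of GFP-positive cells. The labels do not tie wells to embryos, so all 48 cells count as 1 sample and no p-value is given. In the dendrogram of the study 25 wells fell in the prospective epiblast branch (pEPI) and 23 in the prospective primitive endoderm branch (pPrE), and the wells were read from its leaves. The pEPI branch has sub-branches of 11, 9 and 5 cells, named here pEPI-1 to pEPI-3, and the pPrE branch has sub-branches of 12 and 11 cells, named here pPrE-1 and pPrE-2. The branches were drawn from the expression of the same cells, and values between them are therefore descriptive.

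Cells held between 1718970 and 7342785 counts (median 4017083) and 9202 to 11547 detected genes. Of 12 pPrE markers, all 11 with a mean of at least 1 FPKM were at least 2-fold higher in the pPrE branch, and 6 of 10 pEPI markers were at least 2-fold higher in the pEPI branch. On a score of pPrE over pEPI markers, 4 cells of the pEPI branch lay above 0, all of them in pEPI-3. Of 14 trophectoderm markers, 2 were broad by the bounds given below (Tead4 and Krt8, on in 45 and 43 cells), 3 lay between (Fgfr2 in 28, Tspan8 in 23 and Eomes in 19) and 9 were on in 12 cells or fewer, among them Dlx3 with no count. Over all 21943 genes with a count the shares of these classes were 20.1%, 19.1% and 60.8%. Among the defining genes of trophectoderm, Cdx2 was at 0 in 45 cells, Gata3 in 39 and Eomes in 26. The summed level of the 14 ran from 22.4 to 200.1 FPKM in pEPI and from 36.6 to 135 in pPrE. Of 4 leukocyte markers, 3 had no count. Transcripts of 4 Y-linked genes were present at 242 counts or more in 29 cells and at 1 count or fewer in 19, so the 2 sets of cells come from different embryos; 17 of 25 pEPI cells had them and 12 of 23 pPrE cells, but 9 of 12 in pPrE-1 and only 3 of 11 in pPrE-2. For those of the 10 genes with a 2-fold branch difference, values are therefore given within each of these sets.

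Levels are in FPKM, fragments scaled by exon length and library size, which corrects for length and so allows comparison between genes. A cell was called on for a gene at 10 CPM (counts scaled to the total of the library) or more. A gene was called broad when on in at least 40 of 48 cells and restricted to few cells when on in at most 12.

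The promoters show how differently these genes begin. RefSeq windows on GRCm38.p6, from 250 bases before to 50 bases after a start, were at hand for 7 of the 10 genes, and 5 are printed 5′ to 3′ on the strand of the gene, from genes read in few cells to genes read in most, with each CG dinucleotide in capitals.
Anxa1, chr19:20390622-20390921, minus strand: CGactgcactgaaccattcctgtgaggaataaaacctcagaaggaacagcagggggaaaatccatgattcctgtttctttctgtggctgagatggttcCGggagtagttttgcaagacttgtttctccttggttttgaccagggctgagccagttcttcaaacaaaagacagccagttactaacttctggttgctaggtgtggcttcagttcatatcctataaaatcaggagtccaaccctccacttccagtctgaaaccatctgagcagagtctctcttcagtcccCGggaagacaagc
Anxa9, chr3:95307143-95307442, minus strand: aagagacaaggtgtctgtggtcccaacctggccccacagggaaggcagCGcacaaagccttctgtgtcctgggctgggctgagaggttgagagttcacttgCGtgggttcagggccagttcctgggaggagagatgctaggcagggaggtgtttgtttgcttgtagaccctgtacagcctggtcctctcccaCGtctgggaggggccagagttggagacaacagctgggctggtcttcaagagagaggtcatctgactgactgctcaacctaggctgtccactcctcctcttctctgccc
Anxa5, chr3:36475838-36476137, minus strand: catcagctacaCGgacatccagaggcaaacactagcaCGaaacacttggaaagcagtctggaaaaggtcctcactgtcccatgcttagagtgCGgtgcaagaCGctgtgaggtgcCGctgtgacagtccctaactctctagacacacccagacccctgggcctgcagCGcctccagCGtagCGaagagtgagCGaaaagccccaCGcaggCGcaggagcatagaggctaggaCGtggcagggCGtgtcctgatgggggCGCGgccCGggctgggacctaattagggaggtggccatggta
Anxa2, chr9:69453433-69453732, plus strand: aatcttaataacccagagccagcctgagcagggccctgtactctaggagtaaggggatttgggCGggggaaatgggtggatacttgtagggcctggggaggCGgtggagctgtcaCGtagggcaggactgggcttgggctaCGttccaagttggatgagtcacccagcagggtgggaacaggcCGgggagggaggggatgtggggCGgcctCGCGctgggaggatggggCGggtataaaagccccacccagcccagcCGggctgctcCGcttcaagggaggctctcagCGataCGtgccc
S100a11, chr3:93520246-93520545, plus strand: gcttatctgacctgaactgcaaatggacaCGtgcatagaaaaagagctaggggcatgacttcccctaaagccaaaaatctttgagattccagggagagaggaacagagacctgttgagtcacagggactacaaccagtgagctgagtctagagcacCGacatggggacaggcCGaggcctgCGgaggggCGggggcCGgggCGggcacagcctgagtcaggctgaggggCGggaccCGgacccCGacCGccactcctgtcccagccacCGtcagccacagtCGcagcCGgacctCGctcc
The Anxa1 and Anxa9 windows each hold 3 CG dinucleotides and that of S100a6, the other gene here with few cells on, holds 6. The windows of Anxa2, Anxa5, S100a11 and Anxa4 hold 13, 16, 15 and 20. The median over 32851 promoters of the same length was 7, and 37.9% of them held as many as Anxa2. Among the richer windows the number did not follow the cells on, with 16 in Anxa5 (24 cells), 15 in S100a11 (41) and 13 in Anxa2 (36). Anxa3, Anxa6 and S100a10 had no window, and a relation of CG number to cells on was not tested. A further Anxa9 start, upstream at chr3:95315131-95315430, lies in a window of 36 and a further Anxa4 start in a window of 3. The counts do not show which start was used. The letters TATAAA, searched on both strands, were found in the Anxa1 and Anxa2 windows and in 13.6% of all promoters. GGGCGG was found 3 times each in the windows of Anxa2 and S100a11 and in 1 copy in that of Anxa4, and at least once in 35.7% of all promoters. AGATAA, core letters bound by GATA factors, was found on either strand of the S100a11 window and of the further Anxa4 window, and in 11.2% of all promoters.

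Of the 9 genes with a count, 4 were broad, against 20.1% of all 21943 genes with a count, and 3 were on in few cells, against 60.8%. The remaining gene, Anxa3, had no count and counts as a gene on in few cells, which makes 4 of 10. S100a10 was on in 47 cells, Anxa6 in 43, and Anxa4 and S100a11 in 41 each. Anxa2 with 36 cells and Anxa5 with 24 lay between, Anxa9 was on in 12, S100a6 in 7 and Anxa1 in 3. Anxa3, an annexin known from placenta and neutrophils, was at 0 of 48 cells. With the cells taken as independent draws, 3 cells of 48 or 6.25% is the limit on cells with a count at this depth, not on cells that express the gene. Of the genes with a count, 33.5% reached 10 CPM in no cell. At the limits, Anxa4 and S100a11 stood 1 cell above the bound for broad genes with Anxa2 the nearest below it, and Anxa9 stood exactly at the bound for few cells with Anxa5 the nearest above it. A typical cell had 5 of the 10 genes on, with a range from 2 in well E1 to 7.

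**Figure D1:**
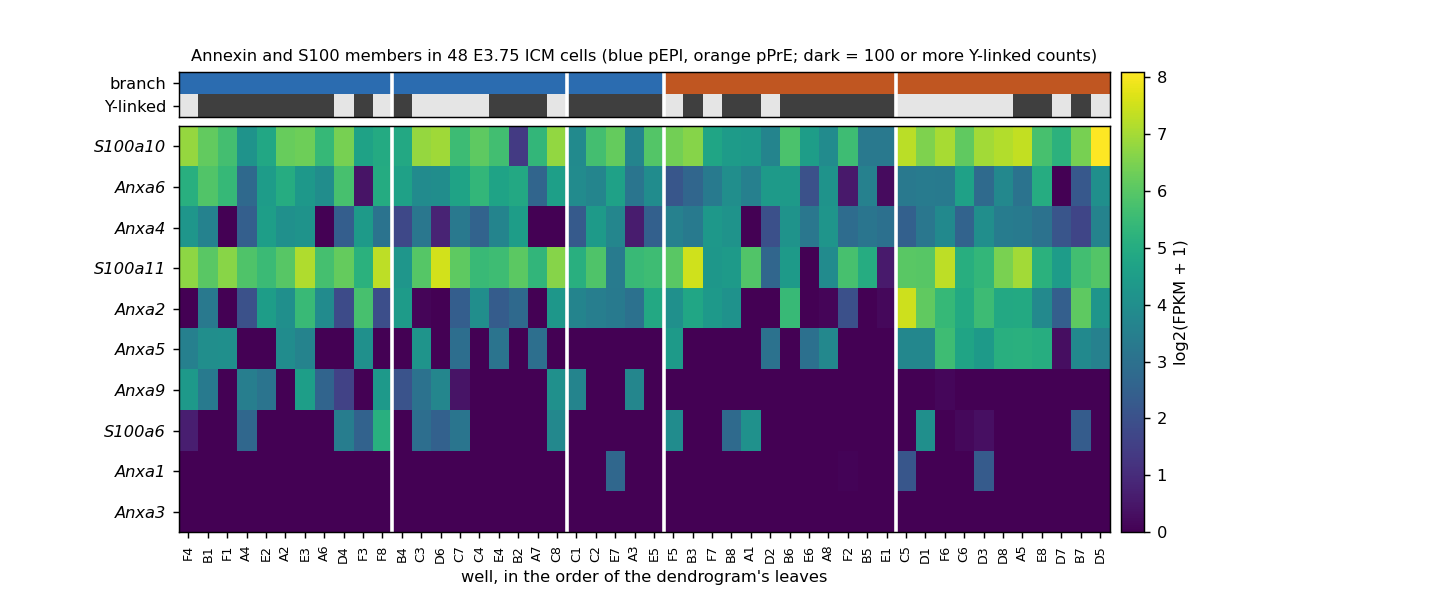
Level of the 10 genes in each of the 48 cells, as log2(FPKM + 1), with genes ordered by the number of cells on and wells in the leaf order of the dendrogram; white lines part the sub-branches pEPI-1, pEPI-2, pEPI-3, pPrE-1 and pPrE-2. The row of Anxa9 is dark across all 23 pPrE cells, and those of Anxa2, Anxa5 and S100a10 are on average brightest in the last 11 cells, pPrE-2.

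The number of cells on did not follow the mean level alone. Over the 48 cells the mean was 65.1 FPKM for S100a10, 60.5 for S100a11, 19.8 for Anxa2, 17.1 for Anxa6, 9.01 for Anxa4 and 8.53 for Anxa5. Anxa4 and Anxa5 thus had similar means, yet Anxa4 was without a count in 5 cells and Anxa5 in 23. In the cells where it was on, Anxa5 had a median of 13.8 FPKM against 9.12 for Anxa4. Anxa9 and S100a6 likewise reached medians of 11.8 and 14.3 FPKM in the cells where they were on, and each had no count in 32 cells. Each had a count in 16 cells, of which 12 and 7 were on. The on bound is in CPM and stands for a higher FPKM in genes with shorter exons, so these medians are not fully comparable. The lowest cell on was at 2.23 FPKM for Anxa4, 6.65 for Anxa5, 5.13 for Anxa9 and 7.77 for S100a6. Neighbours in the order of means overlap widely, since the SD between cells was 52.0 FPKM for S100a10 and 44.7 for S100a11, 29.4 for Anxa2 and 13.2 for Anxa6, and 6.58 for Anxa4 and 11.3 for Anxa5. When every cell was reduced at random to the 1718970 counts of the shallowest, Anxa5 was on in 24 cells, Anxa9 in 12, S100a6 in 8 and Anxa1 in 1.

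**Figure D2:**
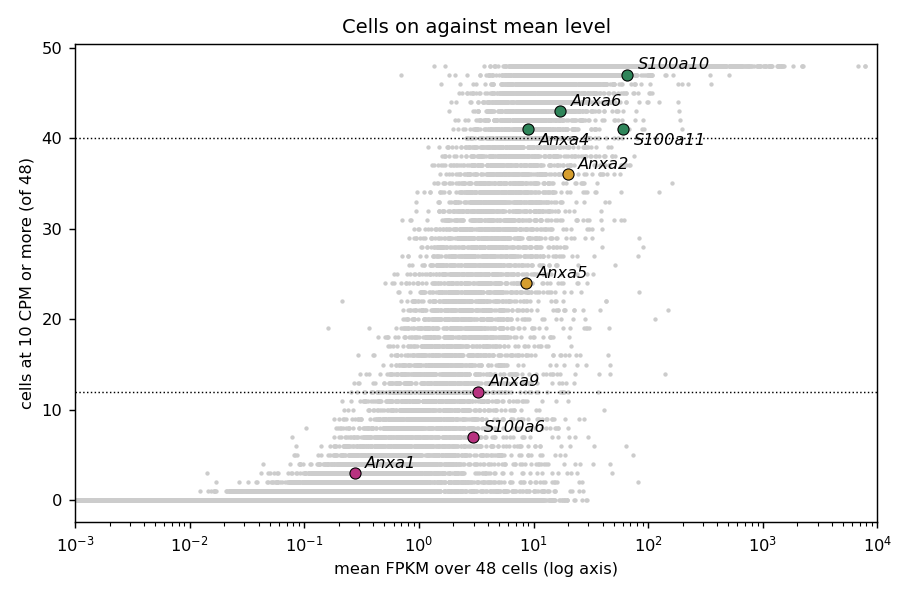
Number of cells on (of 48) against mean FPKM on a log axis for all genes with a count (grey) and for 9 of the 10 genes (green broad, yellow between, magenta few cells); Anxa3 had no count and is not drawn. Dotted lines mark the bounds at 40 and 12 cells. Anxa4 and Anxa5 sit at nearly the same mean level with 41 and 24 cells on.

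Of the 8 genes with a mean of at least 1 FPKM, Anxa2 and Anxa5 were at least 2-fold higher in pPrE, against 6.2% of 10880 genes, and Anxa6 and Anxa9 were at least 2-fold higher in pEPI, against 9.03%. The other 4 were within 2-fold. The median log2 ratio of pPrE over pEPI was -0.16 over the 8 genes and 0.00 over all genes compared. Intervals given with a ratio are 95% intervals for counting error in the summed counts only and do not cover the spread between cells or embryos.

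Anxa9, at chromosome 3, 95296096 to 95307176 on the minus strand, is an annexin whose usual calcium-binding sites have degenerated, and it was the gene most divided between the branches. In pEPI it ran from 0 to 22 FPKM with a median of 3.24, and was on in 12 of 25 cells (48%). The exact binomial 95% interval of that share, 27.8 to 68.7%, takes the cells as independent draws and leaves out the spread between embryos. In the 23 pPrE cells it gave 1 count in all, in well F6, and was on in 0 cells. The same kind of limit is 13% of cells that reach 10 CPM. With the bounds set at the values of Anxa9 itself, 2 genes, or 0.00911% of 21943, were on in at least 12 pEPI cells and in 0 pPrE cells, the other being Mal, a proteolipid of membrane rafts. Since Anxa9 set these bounds, the share is no measure of how unusual it is.

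The Anxa9 mean was 6.28 ± 7.23 FPKM (SD, n = 25 cells) in pEPI and 0.00448 ± 0.0215 (n = 23) in pPrE, a log2 ratio of -10.45 that rests on that single count and has a counting interval from -15.76 to -7.97. Cells with Anxa9 on occurred in each pEPI sub-branch, 7 of 11 in pEPI-1, 3 of 9 in pEPI-2 and 2 of 5 in pEPI-3. They also occurred with and without Y-linked counts, in 7 of 17 and 5 of 8 pEPI cells, while 0 of 12 and 0 of 11 pPrE cells had the gene on. The last 71 bases of Anxa9 overlap the end of Mindy1, a deubiquitinase gene on the opposite strand, and the kit does not mark strand. Mindy1 was on in 43 cells, with 18.4 ± 8.79 FPKM in pEPI and 7.32 ± 5.75 in pPrE, and log2 ratios of -1.51 in cells with Y-linked counts and -0.97 in cells without. A gene of the antisense class, 6330562C20Rik, overlaps the other end of Anxa9 on the same strand and had 99 counts in all. The part of either gene in the Anxa9 counts was not tested.

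Anxa6, at chromosome 11, 54979108 to 55033445 on the minus strand, has a duplicated annexin core and is tied to endosomes and cholesterol traffic. It ran from 0.350 to 58.1 FPKM in pEPI with a median of 22.8, and from 0 to 31.1 in pPrE with a median of 9.18. The ranges overlapped widely, and the gene was on in 24 of 25 pEPI and 19 of 23 pPrE cells, so the branches differed in level far more than in the share of cells on. The means were 23.2 ± 14.3 FPKM (n = 25) and 10.5 ± 8.0 (n = 23), a log2 ratio of -1.14 (-1.2 to -1.08). The same direction was seen in cells with Y-linked counts, with a log2 ratio of -0.98, and without them, with -1.45. Within pEPI the mean was 28 FPKM in pEPI-1, 22.1 in pEPI-2 and 14.4 in pEPI-3, and the latter stood nearest to the 9.54 and 11.6 FPKM of pPrE-1 and pPrE-2.

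Anxa5, at chromosome 3, 36448923 to 36475894 on the minus strand, is the annexin that shields phosphatidylserine on exposed membranes. It ran from 0 to 17.3 FPKM in pEPI with a median of 0, and from 0 to 46.9 in pPrE with a median of 10.8. In pEPI 10 of 25 cells were on and the mean was 4.81 ± 6.49 FPKM, whereas in pPrE 14 of 23 were on and the mean was 12.6 ± 13.9, which gives a log2 ratio of 1.38 (1.27 to 1.5). The excess lay in pPrE-2. There 10 of 11 cells were on with a mean of 22 FPKM, against 4 of 12 cells and 3.94 FPKM in pPrE-1, 6 of 11 in pEPI-1, 4 of 9 in pEPI-2 and 0 of 5 in pEPI-3. The branch ratio was 0.72 in cells with Y-linked counts and 2.0 in cells without, so it was below 2-fold in the former set.

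Anxa2, at chromosome 9, 69453620 to 69491795 on the plus strand, links membranes to actin and is the partner of S100a10. It ran from 0 to 52.3 FPKM in pEPI with a median of 8.70, and from 0 to 179 in pPrE with a median of 17.7. It was on in 19 of 25 pEPI and 17 of 23 pPrE cells, so the share of cells on hardly differed. The means were 12 ± 13.4 and 28.2 ± 39 FPKM, a log2 ratio of 1.24 (1.19 to 1.29) that fell below 2-fold, to 0.84, without well C5. That cell, in pPrE-2, held 179 FPKM, or 18.8% of the sum over all cells. In cells with Y-linked counts the means were 15 FPKM in pEPI and 16.6 in pPrE, a log2 ratio of 0.14, and in cells without them 5.38 and 41, a log2 ratio of 2.93. The branch difference of Anxa2 thus lay in the 19 cells without Y-linked counts. These cells held 8 of the 11 pPrE-2 cells, and Anxa2 was higher in pPrE-2 than in pPrE-1 in both sets. Branch, sub-branch and embryo cannot be told apart for the gene.

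**Figure D3:**
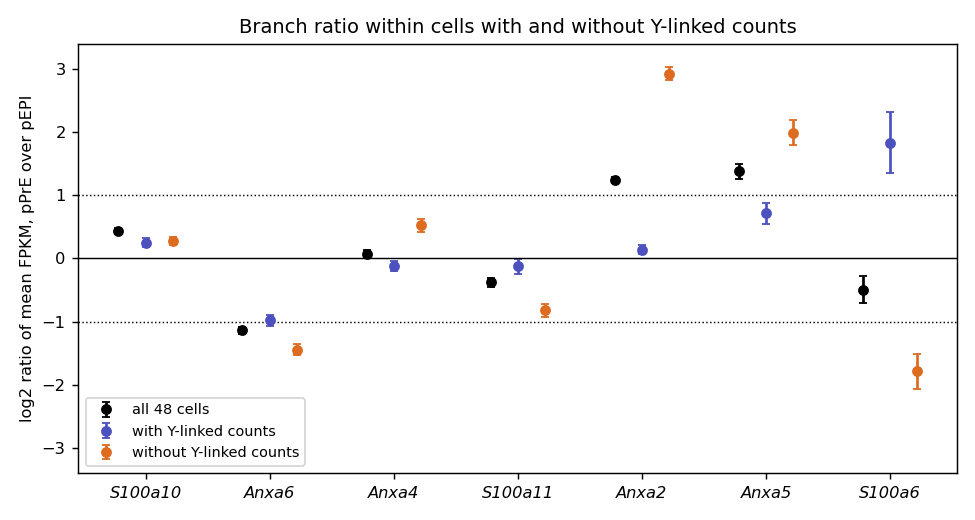
Log2 ratio of mean FPKM, pPrE over pEPI, for 7 genes in all 48 cells (black), in the 29 cells with Y-linked counts (blue) and in the 19 without (orange), with 95% counting intervals that leave out the spread between cells; dotted lines mark 2-fold. Anxa9 is not drawn because its pPrE level rests on 1 count. Anxa6 is below 0 in all 3 sets, Anxa2 ranges from 0.14 to 2.93, and S100a6 changes sign.

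S100a10, at chromosome 3, 93555080 to 93564643 on the plus strand, is the S100 protein that binds Anxa2 without needing calcium. It was the most abundant of the 10 by mean and the only one counted in every cell. It ran from 1.61 to 121 FPKM in pEPI with a median of 50.3, and from 8.67 to 273 in pPrE with a median of 54.8. The means were 55.7 ± 34 and 75.4 ± 65.6 FPKM, a log2 ratio of 0.44 (0.39 to 0.48). Cells without Y-linked counts held more of it than cells with them, 95.8 ± 59.7 against 45 ± 34.5 FPKM, and within these sets the branch ratio was 0.28 and 0.25.

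S100a11, a neighbour of S100a10 at chromosome 3, 93520488 to 93526287 on the plus strand, binds the tail of Anxa1 in other tissues. Its annotated exons span only 511 bases, so 10 CPM stands for a higher FPKM than in the other genes. It ran from 9.35 to 185 FPKM in pEPI with a median of 57.3, and from 0 to 183 in pPrE with a median of 39.9. The means were 68.0 ± 41.6 and 52.3 ± 47.3 FPKM, a log2 ratio of -0.38. It was on in 23 of 25 pEPI cells and 18 of 23 pPrE cells, and all 5 pPrE cells below the on bound belonged to pPrE-1.

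Anxa4, at chromosome 6, 86736840 to 86793584 on the minus strand, is a membrane-binding annexin of epithelia. Its branch means lay closest together among the 8 genes compared. It ran from 0 to 22.1 FPKM in pEPI with a median of 7.42, and from 0 to 19 in pPrE with a median of 8.35. The means were 8.81 ± 7.69 and 9.23 ± 5.28 FPKM, a log2 ratio of 0.07. It was on in 19 of 25 pEPI cells and 22 of 23 pPrE cells.

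S100a6, at chromosome 3, 90612882 to 90624181 on the plus strand, encodes calcyclin, which binds several annexins. It was on in 4 pEPI and 3 pPrE cells, with a median of 0 FPKM in each branch and a highest value of 33.3 in well F8. Of the 7 cells on, 6 were among the 19 cells without Y-linked counts and 1 was among the 29 with them. The branch means were 3.44 ± 7.23 FPKM in pEPI and 2.44 ± 5.27 in pPrE. The log2 ratio was -0.50 in all cells, 1.83 with Y-linked counts and -1.79 without, and no direction can be read from it.

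Anxa1, at chromosome 19, 20373428 to 20390944 on the minus strand, is the glucocorticoid-induced annexin that acts through formyl peptide receptors when secreted. It was on in 3 cells, at 5.55 FPKM in E7 of pEPI-3 and at 4.0 in D3 and 3.52 in C5 of pPrE-2, and 44 cells had no count. The receptor genes Fpr1, Fpr2 and Fpr3 had no count in any cell. Anxa1 was therefore the rarest of the 9 genes detected, and its mean was below the 1 FPKM needed for a branch ratio.

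Within the pPrE branch the genes parted along its sub-branches. This comparison was chosen after values were seen, and the sub-branches were drawn from the expression of the same cells, so the counts below are descriptive. Of 7 genes with a mean of at least 1 FPKM over the 23 pPrE cells, 3 were at least 2-fold higher in pPrE-2 than in pPrE-1, against 8.66% of 10730 genes, and 0 were at least 2-fold lower, against 8.58%. The 3 were Anxa5, Anxa2 and S100a10, with log2 ratios of 2.48, 2.21 and 1.80. Anxa2 had a mean of 10.3 FPKM in pPrE-1, where 6 of 12 cells were on, and of 47.8 in pPrE-2, where all 11 were on. S100a10 had a mean of 34.4 FPKM in pPrE-1 and 120 in pPrE-2, and its lowest pPrE-2 cell, at 35.5, lay above the pPrE-1 median of 21.2.

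The same order held among pPrE cells with Y-linked counts, 9 in pPrE-1 and 3 in pPrE-2, where the means were 9.86 and 36.7 FPKM for Anxa2, 2.17 and 26.7 for Anxa5 and 32.7 and 100 for S100a10. It also held among those without, 3 and 8 cells, where they were 11.7 and 52.0 FPKM for Anxa2, 9.24 and 20.2 for Anxa5 and 39.7 and 127 for S100a10. The remaining genes differed less, with log2 ratios of 0.76 for S100a11, 0.28 for Anxa6, -0.33 for Anxa4 and -0.74 for S100a6. The marker score was higher in pPrE-2 as well, with a median of 1.61 against 0.859 in pPrE-1, while the median count per cell was 4251373 against 4338784.

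**Figure D4:**
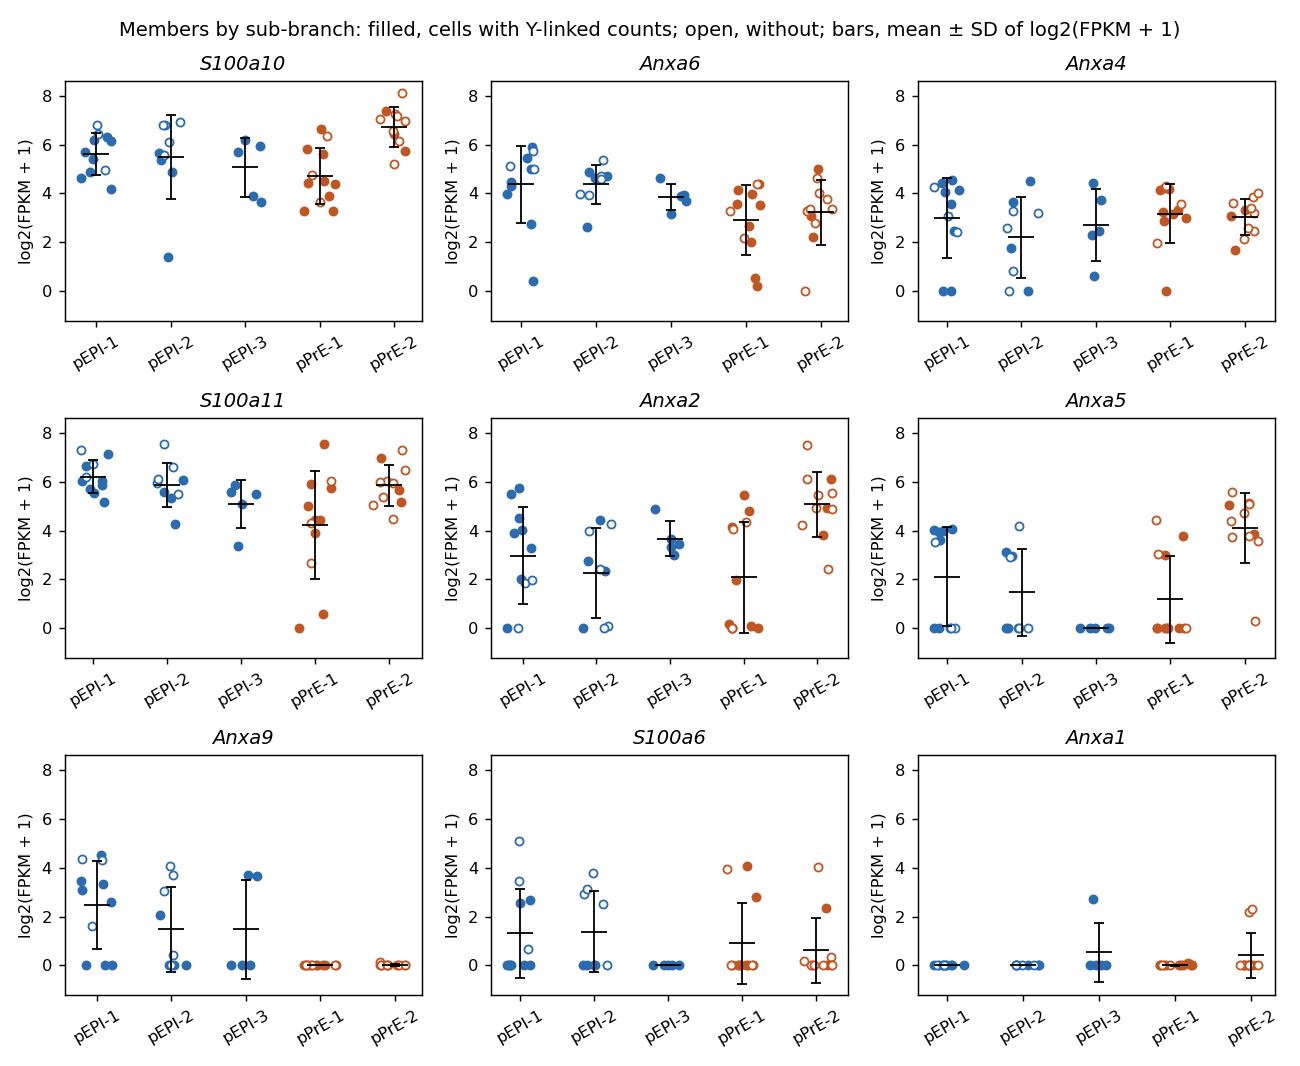
The 9 detected genes by sub-branch, as log2(FPKM + 1), for cells with Y-linked counts (filled) and without (open); bars show mean ± SD of the log2 values over 11, 9, 5, 12 and 11 cells. In pPrE-2 all 11 cells lie above 0 for Anxa2 and 10 of 11 were on for Anxa5, while Anxa9 lies at or close to 0 in all pPrE cells.

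Pairs of the genes were then set side by side across cells. Among the 28 pairs of the 8 genes on in at least 5 cells, Pearson's r of log2(FPKM + 1) ran from -0.23 to 0.48 with a median of 0.11. It reached 0.4 in 3 pairs, all with S100a10, which were S100a11 at 0.48, Anxa5 at 0.47 and Anxa2 at 0.41. These are descriptions over 48 cells that share libraries' normalisation, embryos and branches, and no p-value is attached. S100a10 was on in 47 of 48 cells, so nearly every cell with another gene on had it as well, and the relations below are of level. For S100a10 and Anxa2, r was 0.83 within the 23 pPrE cells and -0.18 within the 25 pEPI cells, and it was 0.47 in cells with Y-linked counts and 0.37 in cells without. Over the 48 cells, r with the log of the total count ran from -0.24 to 0.06 across the 8 genes and r with the summed trophectoderm markers from -0.09 to 0.25; the part of either in these relations was not tested. In pEPI, cells such as C3 and D6 had little or no Anxa2 beside high S100a10. S100a10 and S100a11 likewise had r of 0.70 within pPrE and 0.24 within pEPI. S100a10 and Anxa5 had r of 0.58 within pPrE and 0.32 within pEPI.

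**Figure D5:**
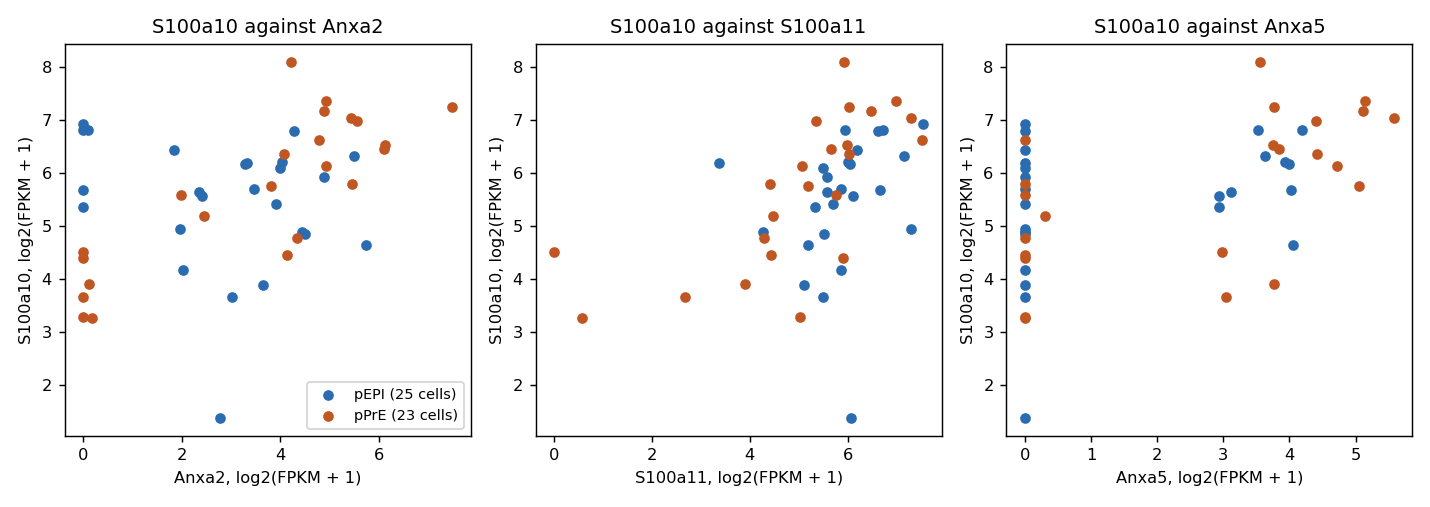
S100a10 against Anxa2, S100a11 and Anxa5 in the 25 pEPI (blue) and 23 pPrE (orange) cells, all as log2(FPKM + 1). With Anxa2 the pPrE cells form a rising band (r = 0.83) and the pEPI cells do not (r = -0.18).

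Among 7612 protein-coding genes compared by Pearson's r over the 48 cells, those closest to Anxa9 were Hdac1, a histone deacetylase, at 0.63, Pml, the scaffold of nuclear bodies, at 0.61 and Lima1, an actin-binding protein, at 0.61. All of these had higher means in pEPI than in pPrE, such as 133 and 57.0 FPKM for Hdac1, whose log2 ratio was -1.16 in cells with Y-linked counts and -1.42 in cells without. Closest to Anxa5 were Dnmt3b, a de novo DNA methyltransferase, at 0.61, Dusp9, a MAP kinase phosphatase, at 0.60 and Zfp623 at 0.56. Dnmt3b had 14.8 FPKM in pEPI and 71.6 in pPrE, with log2 ratios of 0.94 and 2.69 in the same sets. Closest to Anxa2 was Arpc5, a subunit of the Arp2/3 actin nucleator, at 0.55, hardly ahead of Copa at 0.54 and Lin7c at 0.52. Closest to S100a10 was Il6st, the shared receptor chain of the interleukin 6 family, at 0.53, hardly ahead of Eif4e at 0.52 and Cst3 at 0.52. These were the top values among many and are given as descriptions.

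The remaining annexins ranged from broad to silent. Of the further genes with S100 in their name, 0 were broad, 2 lay between (S100a13 and S100pbp) and 13 were on in 12 cells or fewer. Of these 13, 8 had no count. Over all 21943 genes with a count, 20.1% were broad, 19.1% lay between and 60.8% were on in few cells. Of 5 further annexins, Anxa7 was on in 46 cells, Anxa11 in 23 and Anxa10 in 1, and Anxa8 and Anxa13 had no count; Anxa7 and Anxa11, the 2 with a mean of at least 1 FPKM, were within 2-fold between the branches. Anxa11, which binds S100A6, averaged 3.25 ± 1.92 FPKM in pEPI (17 cells on) and 1.78 ± 1.56 in pPrE (6 cells on), for a log2 ratio of -0.87. Of 15 further genes with S100 in their name, 8 had no count, and 4 had a mean of at least 1 FPKM, of which 2 were at least 2-fold higher in pEPI, against 9.03% of all genes compared, and 0 in pPrE, against 6.2%. S100a13 was on in 10 pEPI and 3 pPrE cells with means of 13.7 ± 16.7 and 3.73 ± 6.59 FPKM, and its log2 ratio was -0.72 in cells with Y-linked counts and -3.22 in cells without. The other, S100a1, rests on 2 pEPI cells on and 3 with any count, and it was at 0 in all pPrE cells.

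Of 12 partners in membrane repair and calcium binding, 6 had a mean of at least 1 FPKM, of which 1 was at least 2-fold higher in pEPI and 0 in pPrE, against 9.03% and 6.2% of all genes compared. The penta-EF-hand genes Pdcd6 and Pef1 were on in all 48 cells, and the 1 higher in pEPI was Gca, the EF-hand protein grancalcin, with 15.7 ± 16.8 against 3.01 ± 4.97 FPKM and log2 ratios of -3.22 with Y-linked counts and -2.38 without. S100a10 and Anxa2 serve the plasminogen system at the surface of other cells. Among 10 genes, made up of that system and the receptors Fpr1, Fpr2, Fpr3 and Ager, 5 had no count, among them plasminogen itself. The urokinase receptor Plaur was on in 40 cells, at 26.8 ± 25 FPKM in pEPI and 16 ± 13 in pPrE.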

How the data were processed

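The deposited file gave raw counts of reads per gene in each of the 48 cells. Per the labels and the study's methods, the authors aligned 150-base paired reads with STAR to mm10 and counted them with HTSeq on Ensembl 87, kept cells with at least 500000 mapped reads, and left out cells with strong gene body bias or apart in principal component analysis; versions of the tools were not given in the sources used here. All 48 columns were used, and no sample was left out here.

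From the counts, FPKM was computed with exon lengths of GENCODE release M21 (GRCm38, as in mm10) and library sizes by the median of ratios over 3665 genes counted in every cell; genes without a length held 0.0146% of counts. A cell was on for a gene at 10 CPM. Branch ratios are ratios of mean FPKM among genes with a mean of at least 1 FPKM, called at 2-fold, with no pseudocount; log2(FPKM + 1) was used for correlations. Ratio intervals are exact 95% intervals on summed counts and cover counting error only, since PCR copies cannot be told from separate molecules. The binomial interval of a share of cells (Clopper-Pearson) and the limit for a share at 0 (3 cells of the number of cells) take cells as independent draws, which cells of 3 embryos need not be. Total counts of 1718970 to 7342785 per cell set the precision. The scripts were tested on simulated data (scipy 1.17.1, pandas 2.3.3 and numpy 2.4.6 under Python 3.11.15, with edgeR 4.0.16 for the TMM alternative).

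The labels put all 48 cells in 1 group, E3.75. Branches were read by eye from the dendrogram of the study, drawn from the same cells, and embryos are not labelled; with 1 sample no test was run, and the study's single-cell differential test, which treats cells as replicates, was not repeated. The genes, lists and thresholds were chosen with earlier results of these data known. Named genes were all 10 members, the 3 genes closest to Anxa9, Anxa5, Anxa2 and S100a10 by Pearson's r, and genes from the fixed lists of other annexins, S100 genes and partners. Candidates for the closest genes had a mean log2(FPKM + 1) of at least 1, and those closest to the other members are not named. Mal, Mindy1 and 6330562C20Rik, and the sub-branch comparison within pPrE, were chosen after values were seen. Alternatives changed the on bound, library size, summary, pseudocount, minimum mean, grouping and cells. Promoter sequences are from RefSeq (GRCm38.p6).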

Additional observations from a re-analysis of the deposited data

How the results depend on the processing

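No paired analysis was possible because the cells form 1 group with no replicate numbers. The count of 4 broad genes became 0 at a bound of 50 CPM and 2 in cells with Y-linked counts. In the latter set the bound was scaled to the number of cells. Anxa4 and S100a11, each on in 24 of 29 of these cells (82.8%), fell just below it. The count of 4 genes on in few cells, Anxa3 with no count among them, became 2 at a bound of 1 count, of 1 CPM or of 1 FPKM. It was also 2 in cells without Y-linked counts. The shares over all genes given above hold for 10 CPM and all 48 cells, and none stands beside the changed counts in this section. The 2 genes 2-fold higher in pPrE became 1 on the difference of mean log2(FPKM + 1), 1 without wells of letter C, 1 in cells with Y-linked counts (S100a6 at 1.83, while Anxa2 at 0.14 and Anxa5 at 0.72 were below 2-fold) and 0 when cells were grouped by Ward clusters, which put 39 of 48 cells in the same branch. The 2 genes 2-fold higher in pEPI became 1 without wells of letter F and 1 in cells with Y-linked counts; the cause was not tested. Leaving out each of the 48 cells in turn, an alternative chosen after seeing the data, gave 4 to 4 broad genes, 3 to 4 genes on in few cells, 1 to 2 genes higher in pPrE and 2 to 2 higher in pEPI; the lower value in pPrE was that without well C5. The correlation of Anxa2 and S100a10 was -0.18 within pEPI, the only one of the 3 above 0.4 that turned negative in any setting. Over the planned settings that gave a value, the log2 ratio ran from 0.14 to 2.93 for Anxa2, from 0.52 to 2.0 for Anxa5 and from -1.45 to -0.96 for Anxa6; that of Anxa9 ran from -10.55 to -1.92 and was negative in all 16. That of S100a6 was negative in 19 of 20. With 48 cells of 3 embryos whose wells are not labelled, spread between embryos could not be estimated.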
